A study of Mus musculus with 8 samples.

Results

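Fas, Fasl and 7 members of the Bcl2 family were examined in stimulated splenic CD4+CD25- T cells. The 9 genes were chosen by name and function, not by a threshold on their values, but with earlier results of these data known. Each was represented by its brightest transcript cluster with a single gene symbol, by mean over all arrays. Of these, 8 were measured and all 8 passed the filter on dim genes, among 13508 genes tested. Bax, an effector that forms pores in the mitochondrial outer membrane, had no cluster listed under its symbol in the probe annotation used and was not analysed here.

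The 8 arrays came from C57BL/6 mice aged 6 to 8 weeks, in 4 groups of 2: CD45RBlow cells of CCR2-/- mice, CD45RBhigh cells of CCR2-/- mice, CD45RBlow cells of wild-type mice and CD45RBhigh cells of wild-type mice. CCR2-/- mice lack the receptor for the chemokine CCL2, and the labels do not say which part of the gene is deleted. Naive T cells carry much CD45RB, a splice form of the phosphatase CD45, and antigen-experienced cells carry less. All groups were stimulated on plates with antibodies to CD3 and CD28, for 48 h according to the protocols and for 2 h according to the design text, and unstimulated cells were not analysed here. No label says how many mice stand behind an array, or that replicates came from separate mice, so the p-values here rest on the spread between these arrays alone.

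Activated T cells die by 2 routes that these genes encode. Fas ligand binds the death receptor Fas on a neighbouring cell or on the same cell and activates caspases through an adaptor, which is the main route of activation-induced cell death after repeated stimulation. In the mitochondrial route, BH3-only proteins (here Puma from Bbc3, Bim from Bcl2l11 and Noxa from Pmaip1) bind the anti-apoptotic proteins Bcl2, Bcl-xL (Bcl2l1) and Mcl1 and allow the effectors Bax and Bak to open the mitochondrial membrane, and Bim is the main trigger when activated T cells lose cytokine support.

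The median log2 value of an array was 4.92 to 5.05, and arrays of a group correlated at 0.984 to 0.994 across all clusters. Cd4 was at 11.5 to 11.7 on all arrays, and the mean of 6 measured CD4 T cell markers was 11.35 to 11.43 on CD45RBlow arrays and 11.19 to 11.41 on CD45RBhigh arrays, so the labelled cell type was present. Cd44, listed with Cd4 as a check of the sort, was at 8.53 to 8.92 on CD45RBlow arrays and 8.79 to 9.07 on CD45RBhigh arrays. The subsets thus overlapped for Cd44, and it did not pass by limma within either genotype. Ccr2 was dim, at 4.62 to 5.15 on CCR2-/- arrays and 4.26 to 4.61 on wild-type arrays, and does not check the genotype because the deleted part is unknown. Xist, the RNA that coats the silenced X chromosome in female cells, was at 11.7 to 12.1 on all replicate 2 arrays and at 4.45 to 5.02 on all replicate 1 arrays. The Y-linked gene Kdm5d was at 8.83 to 9.13 on replicate 1 arrays and still at 7.58 to 7.78 on replicate 2 arrays. Xist alone thus does not give the sex of the mice behind an array. Since all 4 groups have both numbers, values are given within each number where they differ.

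The genes lie on separate chromosomes or far apart (GRCm38.p6). Fasl is at chr1:161780691-161788495 and Bcl2 at chr1:106538176-106714290. Bcl2l11 is at chr2:128126038-128162547 and Bcl2l1 at chr2:152758732-152833803. Mcl1 is at chr3:95656944-95663179, Bbc3 at chr7:16308398-16318334, Pmaip1 at chr18:66458604-66465558 and Fas at chr19:34290647-34327775. The exons covered by each cluster are not given in the sources used here. Bcl2 and Mcl1 each had a dimmer cluster, at 4.24 to 4.44 and 4.42 to 4.85 on the log2 scale, close to the 40th percentile of all clusters (4.53 to 4.63), and these were not used.

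How the sorted populations differed was asked first, by setting CD45RBlow against CD45RBhigh cells and averaging the 2 genotypes. Averaged in this way, Fas, Fasl and Bbc3 had less transcript in CD45RBlow cells, with the same sign in each genotype. The other 5 genes did not pass the test. Limma's test, adjusted by Benjamini-Hochberg over all 13508 genes at a threshold of 0.05, called 3 of the 8 genes, all lower. It called 3.03% of all genes tested in either direction and 1.93% as lower in CD45RBlow cells. Among all genes called, 148 were higher and 261 lower, and with each array centred on its median 226 were higher and 217 lower, with the same 3 of the 8 called as lower. On all 4 CD45RBlow arrays these 3 genes lay below all 4 CD45RBhigh arrays, as did 8.13% of all genes tested. The median difference was -0.12 over the 8 genes and -0.01 over all genes tested, on the log2 scale.

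**Figure D1:**
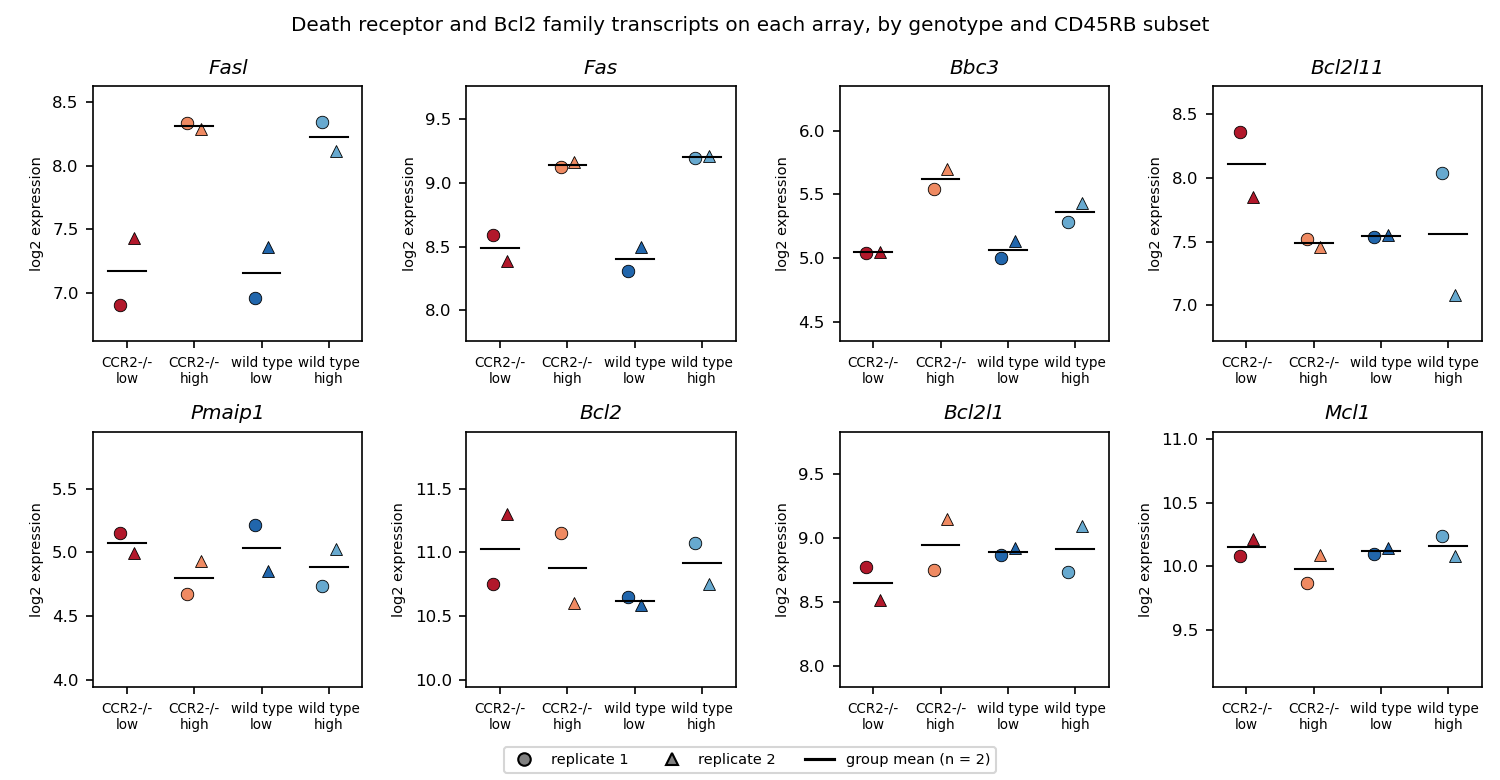
Log2 expression (y axis) of the 8 measured genes on each array, by genotype and CD45RB subset (x axis). Circles are replicate 1, triangles replicate 2 and bars the mean of 2 arrays, and every panel spans the same number of log2 units. Fasl, Fas and Bbc3 are lower on every CD45RBlow array than on any CD45RBhigh array, while the arrays of the subsets overlap in the other 5 panels.

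Fasl encodes the death ligand, a membrane protein of the TNF family. Its log2 level was 6.91 and 7.43 in CCR2-/- CD45RBlow cells (replicates 1 and 2), against 8.34 and 8.29 in CCR2-/- CD45RBhigh cells. In wild-type mice it was 6.96 and 7.36 in CD45RBlow cells, against 8.34 and 8.11 in CD45RBhigh cells. The subsets did not overlap, with a gap of 0.68 between the highest CD45RBlow and the lowest CD45RBhigh array. Averaged over genotypes, Fasl was 2.15-fold lower in CD45RBlow cells (log2 difference -1.10, 95% confidence interval -1.45 to -0.76, adjusted p = 0.0152 by limma). The difference was lower in 4 of 4 pairs of arrays with the same genotype and number, with a mean of -1.41 in replicate 1 and -0.80 in replicate 2. Leaving out 1 array ended the call in 3 cases, with an adjusted p of 0.0505 for CCR2-/- CD45RBlow replicate 1, 0.0773 for wild-type CD45RBlow replicate 1 and 0.0583 for wild-type CD45RBhigh replicate 1. In pooled cells, fewer cells that express a gene and less RNA per cell cannot be told apart.

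Fas encodes the death receptor. Its log2 level was 8.59 and 8.38 in CCR2-/- CD45RBlow cells, against 9.12 and 9.16 in CCR2-/- CD45RBhigh cells. In wild-type mice it was 8.31 and 8.50 in CD45RBlow cells, against 9.20 and 9.21 in CD45RBhigh cells. The 4 CD45RBhigh arrays lay between 9.12 and 9.21 and the CD45RBlow arrays were all lower, with a gap of 0.53 between the subsets. Fas was 1.66-fold lower in CD45RBlow cells (log2 difference -0.73, interval -0.93 to -0.53, adjusted p = 0.0106), with means of -0.71 in replicate 1 and -0.74 in replicate 2. With wild-type CD45RBlow replicate 1 left out, Fas missed the threshold at an adjusted p of 0.0761.

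Bbc3 encodes Puma, a BH3-only protein known as a p53 target. Its log2 level was 5.04 and 5.05 in CCR2-/- CD45RBlow cells, against 5.55 and 5.70 in CCR2-/- CD45RBhigh cells. In wild-type mice it was 5.00 and 5.13 in CD45RBlow cells, against 5.29 and 5.43 in CD45RBhigh cells. These levels were dim, between the 50.1st and the 58.6th percentile of all clusters, and the gap between subsets was 0.16. Bbc3 was 1.35-fold lower in CD45RBlow cells (log2 difference -0.43, interval -0.63 to -0.24, adjusted p = 0.0392), in 4 of 4 pairs. The call held on leaving out CCR2-/- CD45RBhigh replicate 1 (adjusted p = 0.0416), was lost on leaving out any of the other 7 arrays (adjusted p from 0.0604 to 0.203), and was lost with an intensity trend in the variance (adjusted p = 0.0501).

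Within each genotype the 3 genes kept the sign of the averaged difference. In CCR2-/- cells the log2 difference was -1.14 for Fasl (interval -1.63 to -0.66, adjusted p = 0.0848), -0.65 for Fas (-0.94 to -0.37, adjusted p = 0.0863) and -0.58 for Bbc3 (-0.85 to -0.31, adjusted p = 0.108). In wild type it was -1.07 for Fasl (-1.55 to -0.58, adjusted p = 0.169), -0.80 for Fas (-1.08 to -0.52, adjusted p = 0.0913) and -0.29 for Bbc3 (-0.56 to -0.02, adjusted p = 0.497). None of the 8 genes passed within a single genotype by limma, and the test called 0.333% of all genes in CCR2-/- cells and 0.0888% in wild type. At an unadjusted p under 0.05 there were 3 of the 8 in each genotype, among 1665 of the 13508 genes in CCR2-/- cells and 1245 in wild type. With the replicate number as a block, Fasl passed in CCR2-/- cells (adjusted p = 0.0474) and Fas in wild type (adjusted p = 0.0483), where the block called 1.45% and 0.770% of all genes. In the averaged comparison the block called the same 3 genes of the 8, against 5.61% of all genes.

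**Figure D2:**
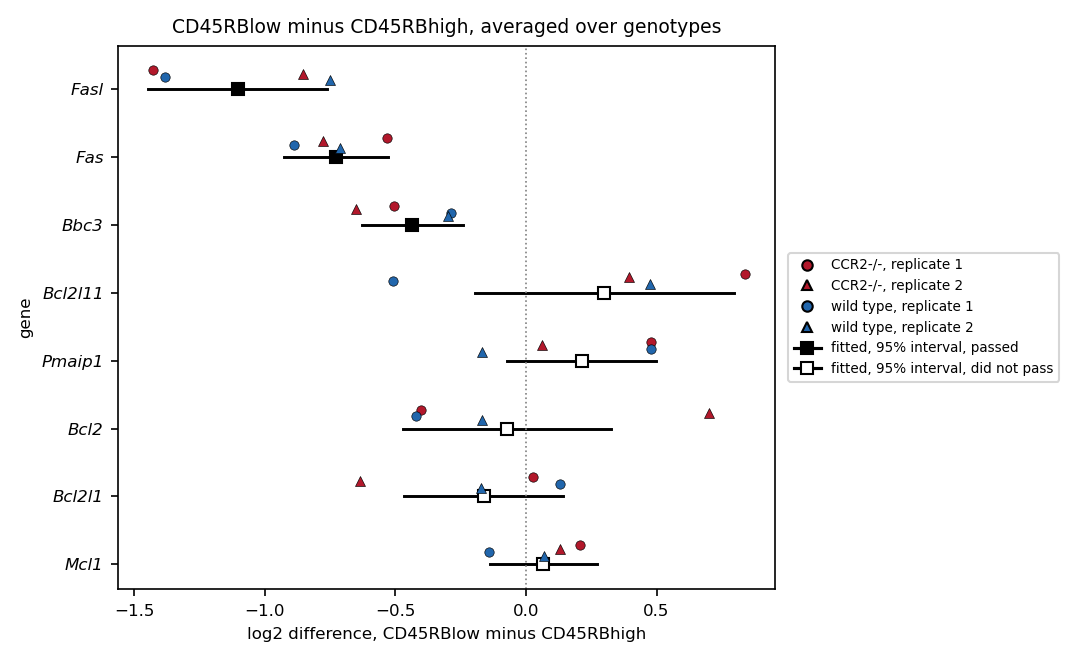
Log2 difference of CD45RBlow minus CD45RBhigh (x axis) for each gene (y axis). Squares with lines are the fitted difference averaged over genotypes with its 95% confidence interval, filled where it passed, and small symbols are the 4 pairs of arrays with the same genotype and replicate number. For Fasl, Fas and Bbc3 all 4 pairs are negative, whereas the pairs of Bcl2l11, Pmaip1, Bcl2, Bcl2l1 and Mcl1 lie on both sides of 0.

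Promoter letters are given for Fas and Fasl, whose log2 differences between subsets were the largest of the 8 genes in size. The 250 bases before a RefSeq start (GRCm38.p6) are printed 5′ to 3′ on the gene's strand, chr19:34290409-34290658 on the plus strand for Fas and chr1:161788496-161788745 on the minus strand for Fasl. The last 12 bases of the Fas window lie inside the annotated gene. Capitals mark matches on either strand to 6 motifs: the NFAT core GGAAA, the EGR site GCGNGGGCG, the STAT site TTCNNNGAA, the GC box GGGCGG, the TATA box TATAAA and the E box CACGTG.
Fas: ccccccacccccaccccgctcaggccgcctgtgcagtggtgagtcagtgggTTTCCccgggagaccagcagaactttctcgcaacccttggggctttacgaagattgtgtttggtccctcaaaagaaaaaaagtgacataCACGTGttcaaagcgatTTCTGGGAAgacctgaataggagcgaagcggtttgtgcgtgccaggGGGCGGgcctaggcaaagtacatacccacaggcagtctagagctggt
Fasl: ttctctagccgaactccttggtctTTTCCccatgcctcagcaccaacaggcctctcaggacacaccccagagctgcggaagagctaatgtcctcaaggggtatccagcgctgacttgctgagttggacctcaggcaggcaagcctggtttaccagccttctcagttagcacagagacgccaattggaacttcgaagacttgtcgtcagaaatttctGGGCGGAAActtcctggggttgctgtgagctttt

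The Fas window held 1 match each to the NFAT core, the STAT site, the GC box and the E box. The Fasl window held 2 matches to the NFAT core, of which the second overlapped its 1 GC box. Among the 32851 RefSeq promoter windows of the same length, the NFAT core was present in 55.6%, the GC box in 32.7%, the TATA box in 12.4%, the STAT site in 7.02%, the E box in 6.02% and the EGR site in 4.70%. G and C made up 56.4% of the Fas window and 53.6% of the Fasl window, near the median of 52.4% over all windows. The 3 Bbc3 starts lie inside the annotated gene, and G and C made up 72.4% to 81.6% of their windows. A match describes the letters of the window and not binding.

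The other 2 BH3-only genes did not pass between the subsets. Bcl2l11 encodes Bim. Its log2 level was 8.36 and 7.85 in CCR2-/- CD45RBlow cells, against 7.52 and 7.46 in CCR2-/- CD45RBhigh cells, and 7.53 and 7.55 in wild-type CD45RBlow cells, against 8.04 and 7.08 in wild-type CD45RBhigh cells. The 2 wild-type CD45RBhigh arrays were nearly a full log2 unit apart and held both the lowest and the second highest value of all arrays. The averaged log2 difference was 0.30 (interval -0.20 to 0.79, adjusted p = 0.532), and 1 of 4 pairs, replicate 1 of wild type, was lower in CD45RBlow cells.

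Pmaip1 encodes Noxa, which binds mainly Mcl1. Its log2 level was 5.15 and 4.99 in CCR2-/- CD45RBlow cells, against 4.67 and 4.93 in CCR2-/- CD45RBhigh cells, and 5.22 and 4.85 in wild-type CD45RBlow cells, against 4.74 and 5.02 in wild-type CD45RBhigh cells. The gene was dim, between the 43.9th and the 54.3rd percentile of all clusters, and the subsets overlapped. The averaged log2 difference was 0.21 (interval -0.07 to 0.50, adjusted p = 0.426), with a mean of 0.48 in replicate 1 and -0.05 in replicate 2.

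The 3 anti-apoptotic genes did not pass between the subsets, and their arrays overlapped. Bcl2, the founding member of the family, was at 10.75 and 11.30 in CCR2-/- CD45RBlow cells, against 11.15 and 10.61 in CCR2-/- CD45RBhigh cells, and at 10.65 and 10.58 in wild-type CD45RBlow cells, against 11.07 and 10.75 in wild-type CD45RBhigh cells. Its highest value was in CCR2-/- CD45RBlow replicate 2, the single pair of 4 in which CD45RBlow was above CD45RBhigh. The averaged log2 difference was -0.07 (interval -0.47 to 0.32, adjusted p = 0.884), with -0.41 in replicate 1 and 0.26 in replicate 2.

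Bcl2l1, whose long product Bcl-xL is induced in activated T cells, was at 8.78 and 8.51 in CCR2-/- CD45RBlow cells, against 8.75 and 9.15 in CCR2-/- CD45RBhigh cells, and at 8.87 and 8.92 in wild-type CD45RBlow cells, against 8.74 and 9.10 in wild-type CD45RBhigh cells. A cluster sums over transcripts, so the long and short forms of Bcl2l1 were not separated. The averaged log2 difference was -0.16 (interval -0.47 to 0.14, adjusted p = 0.586), with 0.08 in replicate 1 and -0.40 in replicate 2. Mcl1, a short-lived anti-apoptotic protein that T cells need, had the narrowest range of the 8 genes, 9.87 to 10.23 over all arrays. Its averaged log2 difference was 0.07 (interval -0.14 to 0.27, adjusted p = 0.776).

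Fas, Fasl and Bbc3 were also set beside 79 other genes of the death receptor and mitochondrial pathways and of factors upstream of them, of which 67 were tested. Between the subsets 3 of these rose, 2 fell and 62 did not pass, with a median log2 difference of 0.02. Tnfsf10, which encodes the death ligand Trail, rose to 6.33 and 6.65 in CCR2-/- CD45RBlow cells, against 5.98 and 5.96 in CCR2-/- CD45RBhigh cells, and to 6.43 and 6.62 in wild-type CD45RBlow cells, against 5.92 and 5.88 in wild-type CD45RBhigh cells (log2 difference 0.57, interval 0.34 to 0.80, adjusted p = 0.0303). Tnfrsf1b, the second TNF receptor, which has no death domain, rose by 0.55 (interval 0.34 to 0.75, adjusted p = 0.0271). Its rise was 0.79 in wild type and 0.30 in CCR2-/- cells. The CCR2-/- difference minus the wild-type difference was -0.49 (interval -0.90 to -0.07, unadjusted p = 0.0266 by limma), which did not pass after adjustment. In a list of 10 death ligands and receptors, all tested, Tnfsf10 and Tnfrsf1b thus rose and Fas and Fasl fell. The Trail receptor Tnfrsf10b differed by 0.18 (adjusted p = 0.516).

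Among 11 upstream factors, all tested, Egr2 rose and Stat4 and Ddit3 fell. Egr2, a transcription factor induced by T cell receptor signals that is known to act on the Fasl promoter, rose by 0.79 (interval 0.46 to 1.11, adjusted p = 0.0339), the opposite sign to Fasl, and Egr3, a related factor, differed by -0.27 (adjusted p = 0.422). Stat4, which carries the interleukin 12 signal, fell by 0.66 on the log2 scale (interval -0.91 to -0.40, adjusted p = 0.0286). Ddit3, which encodes the stress factor CHOP, was at 6.47 and 7.26 in CCR2-/- CD45RBlow cells, against 7.84 and 8.53 in CCR2-/- CD45RBhigh cells, and at 6.42 and 6.90 in wild-type CD45RBlow cells, against 7.85 and 8.47 in wild-type CD45RBhigh cells. It fell by 1.41 on the log2 scale (interval -2.00 to -0.83, adjusted p = 0.0338). Each of Tnfsf10, Tnfrsf1b, Egr2, Stat4 and Ddit3 had the same sign in 4 of 4 pairs. That does not set them apart, because listed genes that did not pass, such as Cyld and Bid, also had it. All 5 calls were lost on leaving out wild-type CD45RBlow replicate 1 (adjusted p from 0.115 for Tnfsf10 to 0.166 for Ddit3), and each was lost for at least 4 other arrays in turn. Within a genotype none of the 5 passed, but with the replicate number as a block Ddit3 (adjusted p = 0.0103), Egr2 (0.0474) and Stat4 (0.0466) passed in CCR2-/- cells, and Ddit3 (0.00742) and Tnfrsf1b (0.0453) in wild type.

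**Figure D3:**
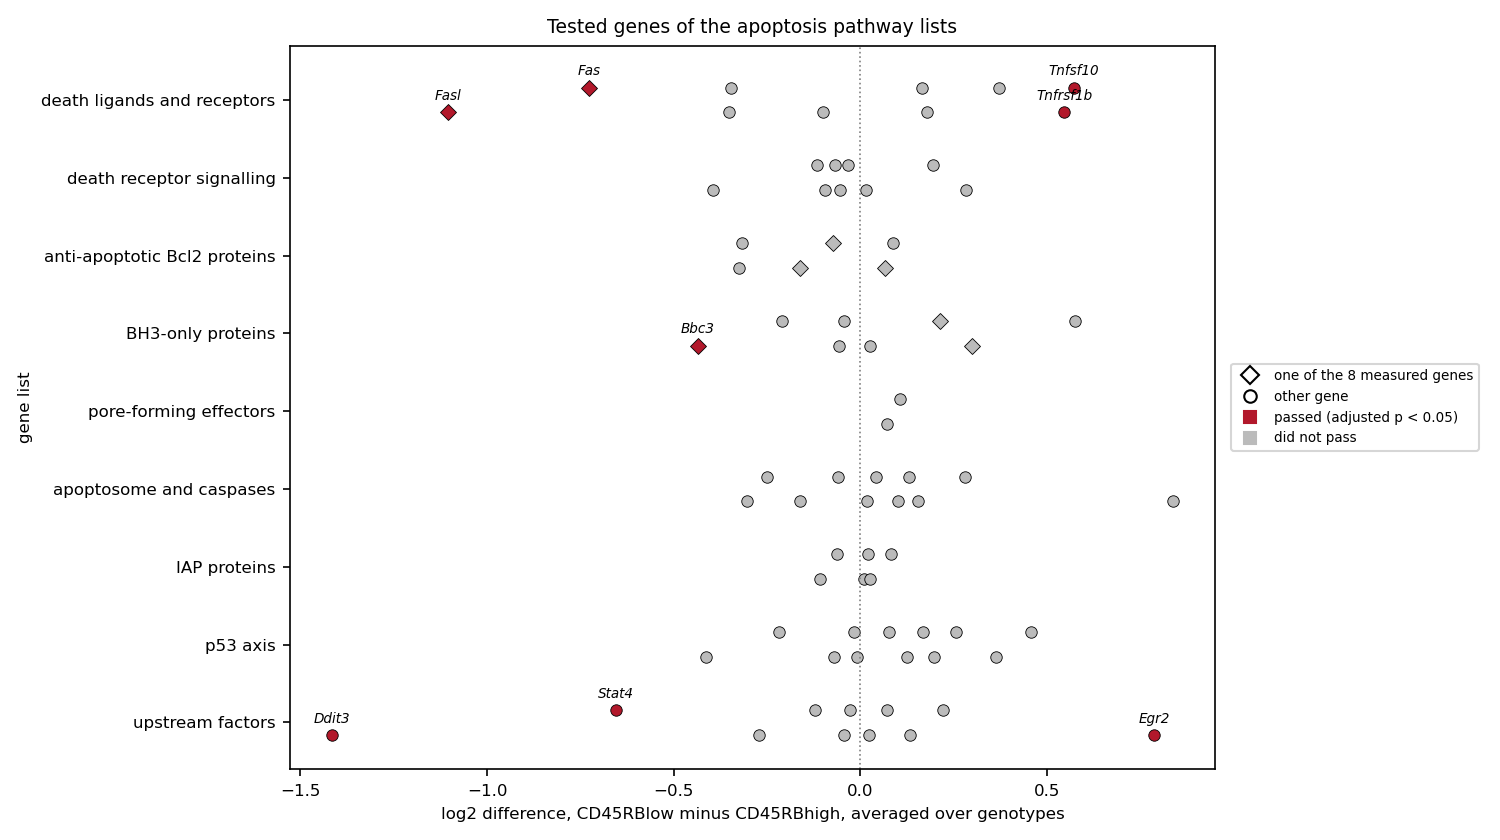
Log2 difference of CD45RBlow minus CD45RBhigh averaged over genotypes (x axis) for the tested genes of 9 pathway lists (y axis). Diamonds are the measured genes of the report and circles the other genes, red where limma's adjusted p passed. Red symbols lie in the lists of death ligands and receptors, BH3-only proteins and upstream factors, and the other 6 lists hold none.

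In the other lists Bbc3 was the single gene that passed. Of 9 tested genes that carry the death receptor signal, the smallest p was for Cyld, a deubiquitinase (0.28, adjusted p = 0.297), and Casp8, the caspase recruited to Fas, differed by -0.03 (adjusted p = 0.884). Of 6 tested anti-apoptotic genes, Bcl2a1c had the smallest p (-0.32, adjusted p = 0.156), and its near-identical paralogs make its probes uncertain. Of 8 tested BH3-only genes, Bid, which links the death receptor to mitochondria, differed by -0.21 (adjusted p = 0.230). Bak1, the effector related to Bax, differed by 0.11 (adjusted p = 0.682). Among 11 tested genes of the apoptosome and caspases, Casp6 had the smallest p (0.84, adjusted p = 0.0950), and among 12 of the p53 axis it was Zmat3 (0.36, adjusted p = 0.0524). Both passed when the replicate number was a block, at 0.0328 for Casp6 and 0.0437 for Zmat3. The pairs of Casp6 were uneven, at 0.04 and 1.08 in wild-type replicates 1 and 2 and 1.185 and 1.04 in CCR2-/- replicates 1 and 2. Its subsets overlapped, and those of Zmat3 did not. Cdkn1a, a p53 target like Bbc3, differed by -0.02 (adjusted p = 0.949). The log2 differences of the 12 tested genes of the p53 axis ranged from -0.41 to 0.46, with a median of 0.10. Of 6 tested IAP genes, which encode caspase inhibitors, the smallest p was for Birc6 (0.08, adjusted p = 0.636).

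Markers of other cells moved with the subsets in part, although the labels describe cells sorted as CD4+CD25-. Of the 2 CD8 T cell markers, cells that make much Fas ligand, neither passed, but Cd8b1 was at 6.97 to 7.38 on CD45RBlow arrays and 7.76 to 8.78 on CD45RBhigh arrays (log2 difference -0.92, adjusted p = 0.0776). In replicate 1 Cd8b1 was at 6.97 and 7.38 in wild-type and CCR2-/- CD45RBlow cells, against 8.22 and 8.78 in CD45RBhigh cells. In replicate 2 Cd8b1 was at 7.26 and 7.30, against 7.82 and 7.76. Blocking on the number brought Cd8b1 to an adjusted p of 0.0467. Cd8a was dim, at 4.39 to 4.63 on CD45RBlow arrays and 4.51 to 4.91 on CD45RBhigh arrays. The mean of the CD8 list was 5.80 to 5.93 on CD45RBlow arrays and 6.16 to 6.84 on CD45RBhigh arrays. Of 9 NK cell markers, another source of Fas ligand, 4 were tested, 0 passed by limma, and the mean of the 6 measured was 5.64 to 5.80 on CD45RBlow arrays and 5.55 to 5.75 on CD45RBhigh arrays, with Klrb1c and Ncr1 below the filter. Of 10 B cell markers, 5 were tested and Ighm fell, with a mean of the 8 measured of 4.88 to 4.98 on CD45RBlow arrays and 5.12 to 5.83 on CD45RBhigh arrays, and Blk, Pax5 and Fcrla were below the filter. In replicate 1 Cd79a was at 3.85 and 3.87 in wild-type and CCR2-/- CD45RBlow cells, against 4.99 and 5.86 in CD45RBhigh cells. In replicate 2 Cd79a was at 3.91 and 3.77, against 3.90 and 4.24. Cd79b was at 4.94 and 4.96, against 6.18 and 6.85, in replicate 1, and at 5.27 and 5.14, against 5.31 and 5.22, in replicate 2. Ighm was lower in CD45RBlow cells in both numbers. Of 8 regulatory T cell markers 5 rose, Foxp3 among them by 3.05 (adjusted p = 0.00627), with a list mean of 8.26 to 9.18 in CD45RBlow cells against 7.10 to 7.37 in CD45RBhigh cells. Of the myeloid markers, Ctss fell among 4 tested macrophage genes and Naaa among 3 tested dendritic cell genes, and neither of 2 tested neutrophil genes passed. Cd68, another macrophage gene, differed by -0.53 (adjusted p = 0.292, and 0.0244 when blocked), with -0.97 in CCR2-/- cells (0.283, and 0.0259 when blocked) and -0.09 in wild type (0.978, and 0.859 when blocked). The interaction for Cd68 was -0.88 (95% confidence interval -1.98 to 0.22, adjusted p = 1). The list means were 5.38 to 5.43 on CD45RBlow arrays and 5.54 to 5.91 on CD45RBhigh arrays for macrophages, 4.84 to 4.91 on CD45RBlow and 5.01 to 5.11 on CD45RBhigh arrays for dendritic cells, and 4.33 to 4.48 on CD45RBlow and 4.31 to 4.47 on CD45RBhigh arrays for neutrophils. The part of these cells in the differences of Fasl, Fas and Bbc3 was not tested.

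The comparison of CCR2-/- with wild-type cells asked what the loss of CCR2 changed. None of the 8 genes passed, averaged over the subsets or within either, and limma called 0% of all genes tested in each of the 3 comparisons. At an unadjusted p under 0.05 there were 521 genes in the averaged comparison and 0 of the 8. The fit with the replicate block also called 0 genes. The averaged log2 differences of CCR2-/- minus wild type were 0.01 for Fas (interval -0.19 to 0.21) and 0.05 for Fasl (-0.30 to 0.39). They were 0.12 for Bbc3 (-0.07 to 0.31), 0.25 for Bcl2l11 (-0.25 to 0.74), -0.02 for Pmaip1 (-0.31 to 0.26), 0.19 for Bcl2 (-0.21 to 0.59), -0.11 for Bcl2l1 (-0.41 to 0.20) and -0.07 for Mcl1 (-0.28 to 0.13).

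**Figure D4:**
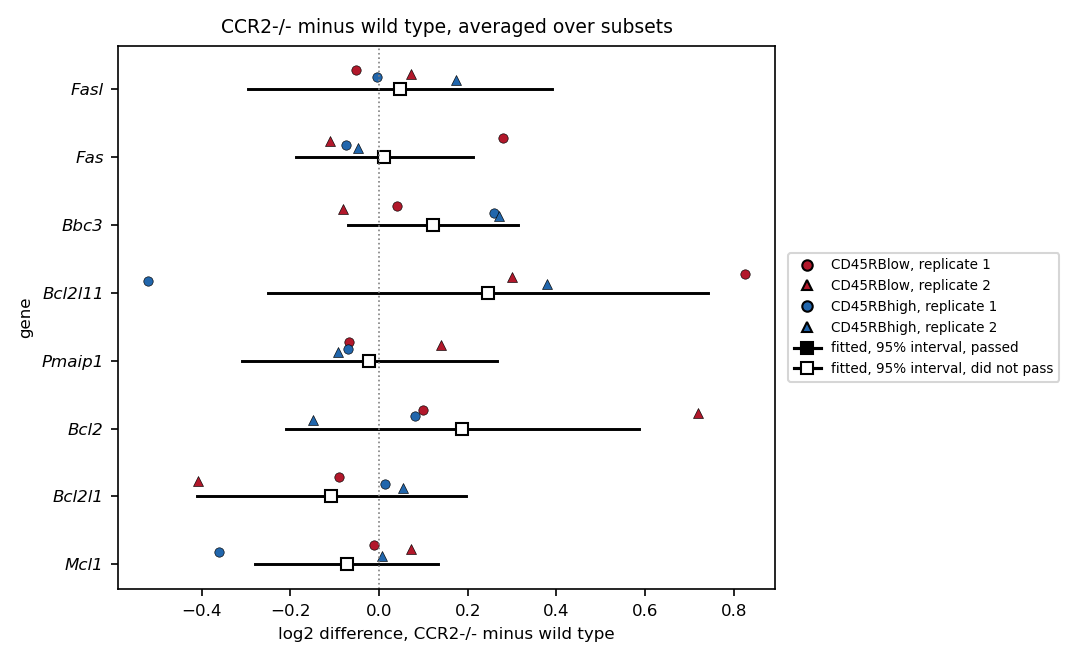
Log2 difference of CCR2-/- minus wild type (x axis) for each gene (y axis). Squares with lines are the fitted difference averaged over subsets with its 95% confidence interval, none of which passed, and small symbols are the 4 pairs of arrays with the same subset and replicate number. Every interval crosses 0, and those of Bcl2l11 and Bcl2 are the widest.

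Within a subset, the differences furthest from 0 were in CD45RBlow cells. There Bcl2l11 differed by 0.56 (interval -0.14 to 1.26, adjusted p = 1 by limma) and Bcl2 by 0.41 (-0.15 to 0.97, adjusted p = 1). In CD45RBhigh cells Bbc3 was at 5.55 and 5.70 in CCR2-/- mice, against 5.29 and 5.43 in wild-type mice, a difference of 0.26 (-0.01 to 0.54, adjusted p = 1). In CD45RBlow cells Bbc3 lay between 5.00 and 5.13 in both genotypes.

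Whether the difference between subsets depended on the genotype was tested by the interaction, the CCR2-/- difference minus the wild-type difference. It was called for 0 of the 8 genes and 0% of all genes by limma, with 160 genes and 0 of the 8 at an unadjusted p under 0.05. It was -0.07 for Fasl (interval -0.76 to 0.61), 0.15 for Fas (-0.25 to 0.55), -0.28 for Bbc3 (-0.67 to 0.10), 0.63 for Bcl2l11 (-0.36 to 1.62) and 0.44 for Bcl2 (-0.35 to 1.24), with an adjusted p of 1 for each. The intervals for Bcl2l11 and Bcl2 were the widest of these. They and the interval for Fasl held both 0 and the size of the averaged difference of Fas (-0.73). That size was held with a positive sign for Bcl2l11 and Bcl2 and with a negative sign for Fasl.

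The genes whose log2 levels followed the 3 called genes most closely over the 8 arrays were found among 13507 others. For Fas they were Gm20559 (Pearson r = 0.991, Spearman rho = 0.857), Efcab11 (r = 0.989, rho = 1) and 9930111J21Rik2 (r = 0.979, rho = 0.786). For Fasl they were Coq3 (r = 0.991, rho = 0.976), Vldlr (r = 0.991, rho = 0.881) and Wdr31 (r = 0.990, rho = 0.905). For Bbc3 they were Eif4a1 (r = 0.991, rho = 0.976), Cox17 (r = 0.989, rho = 0.976) and Akna (r = 0.987, rho = 0.976). All 9 were lower on every CD45RBlow array than on any CD45RBhigh array, so the points of each correlation fall into the 2 subsets. No gene appeared for more than 1 of the 3.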

How the data were processed

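Expression was measured on 8 single-colour arrays, each hybridised with labelled cDNA from 200 ng of RNA, per the labels' protocols. The authors deposited log2 values for 41034 transcript clusters. RMA and Partek are named, without versions, per the submitters' processing notes. Because RMA as usually run equalises the arrays' distributions, a shift of most genes at once cannot be seen. The number of arrays limits the precision.

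Groups came from the sample titles, and unnumbered samples were taken as replicate 1. Of the clusters, 23521 had exactly 1 symbol in the platform annotation, 1814 had several and 15699 were unnamed here. The brightest cluster stood for each of 22180 genes, and a gene was tested if 2 or more arrays had it at the 40th percentile of clusters or higher, which kept 13508. A mean per group was fitted over all 8 arrays with limma 3.58.1 in R 4.3.3 (4 residual and 3.36 prior degrees of freedom). P-values are moderated, two-sided and adjusted by Benjamini-Hochberg over all genes tested. The calculations were tested on simulated data.

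Deviations of same-numbered arrays correlated across genes between every 2 groups, with r from 0.109 to 0.531, over the limit of 0.1. No label says what the numbers mark. The main fit did not use the number, so its intervals and p-values are unpaired. Arrays were paired by number only in the differences given per pair and in the block fit. A fit with the number as a block is given where it changes a call of the 8 genes, of a gene named from the wider lists or, averaged over genotypes, of a cell marker.

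The genes, lists and tests were chosen with earlier results of these data known. Named from the wider lists were all passing genes and otherwise the one with the smallest p. Others named beside them (Egr3, Casp8, Tnfrsf10b, Cdkn1a and single cell markers) were added after their values were seen. For the 3 called genes, the 3 most correlated genes were named. Alternatives changed the filter, the choice of cluster, the array scaling, the variance model, array weights and the samples fitted. Promoter sequences came from RefSeq (GRCm38.p6).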

Additional observations from a re-analysis of the deposited data

Results flagged for a closer look

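Bcl2l1 was below wild type in both CCR2-/- CD45RBlow arrays of the same number (by -0.09 and -0.41 on the log2 scale) and above it in both CD45RBhigh arrays (by 0.01 and 0.05). The pairs thus differed in sign between the 2 subsets, but the CD45RBhigh values were close to 0. The fitted difference in CD45RBhigh cells was 0.03 (95% confidence interval -0.40 to 0.46). The interaction was -0.28 (95% confidence interval -0.89 to 0.33, adjusted p = 1 by limma) and did not pass. No group held enough arrays to look for an outlying sample.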

How the results depend on the processing

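The lower levels of Fas, Fasl and Bbc3 in CD45RBlow cells kept their sign in all 15 alternatives, while their calls depended on single arrays. Leaving out 1 array gave 0 to 3 of the 8 genes called in the averaged comparison, 0 when it was wild-type CD45RBlow replicate 1 and 1 when it was CCR2-/- CD45RBlow replicate 1 or wild-type CD45RBhigh replicate 1. Over all genes the averaged count was 758 with the replicate block and 39 to 524 on leaving out 1 array. Within wild type it was 104 genes with the block, 31 with an intensity trend, 116 with array weights, 36 with only the groups compared and 1 to 54 on leaving out 1 array, and 1 of the 8 genes was called both with the block and with array weights. Within CCR2-/- it was 196 genes with the block, where 1 of the 8 was called, 69 with arrays centred on their median, 69 with an intensity trend, 7 with array weights, 9 with only the groups compared and 1 to 84 on leaving out 1 array. With arrays centred, 1 gene was called between genotypes, averaged and also within CD45RBhigh cells. Apart from the cases given, the block changed no call among the 8 genes.

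Values that changed sign were never called. Mcl1 was at -0.0004 between subsets with the mean of its clusters, and Fas at -0.033 between genotypes with arrays centred. On leaving out 1 array, the subset difference of Bcl2 ranged from -0.21 to 0.065 and the interaction of Fasl from -0.34 to 0.19. The genotype difference then ranged from -0.039 to 0.062 for Fas, -0.085 to 0.18 for Fasl and -0.11 to 0.069 for Pmaip1. The cause was not tested. A stricter filter left out Pmaip1. With 2 arrays a group and dim signals for Bbc3 and Pmaip1, small differences were not detectable.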
